A study of Mus musculus with 12 samples.

Results

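Notch pathway genes were described in 3 mouse cell lines whose resting mRNA levels had been measured by microarray. The genes are the receptors Notch1, Notch2, Notch3 and Notch4, the ligands Dll1, Jag1 and Jag2, the DNA-binding protein Rbpj, and the target genes Hes1 and Hey1. They were listed by name, and all 10 had probes, among 25128 genes and unnamed targets on the array. The lines were AtT20, a neuroendocrine line from a mouse pituitary tumor, BV2, a mouse microglial line, and N18, a mouse neuroblastoma line. Each line was grown as 4 plates in DMEM with fetal bovine serum and antibiotics, was left untreated, and gave 1 single-color NimbleGen array per plate. Plates were extracted separately, so the p-values measure the spread between plates within lines, pooled over the 3 lines. They do not measure the spread between lines of the same origin. Each line is a single immortalized line, and the BV2 values stand for unstimulated cells only. Since RNA of a whole plate was measured, fewer cells with a transcript and less transcript per cell cannot be told apart.

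The Notch pathway carries signals between neighboring cells. A ligand of the Delta or Jagged type on a sending cell binds a Notch receptor on a receiving cell, which is then cut by an ADAM protease and by the gamma-secretase complex, and the freed intracellular part moves to the nucleus. There it joins Rbpj and Mastermind coactivators on DNA and turns on genes such as Hes1 and Hey1, which encode repressors of the basic helix-loop-helix kind. In the nervous system the pathway is known for holding progenitors back from becoming neurons, and in endothelium and blood cells for choices of cell fate.

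Rbpj binds DNA at a core written TGGGAA, or TTCCCA on the other strand, and promoter sequence is shown here for Rbpj itself and for Jag1. They were chosen because Rbpj was the only one of the 8 members searched with this core near its start, and because Jag1 had the largest difference of the 10 between N18 and BV2. RefSeq promoter windows of mouse build GRCm38.p6, each 300 bases long, were found for 8 of the 10 members and not for the target genes Hes1 and Hey1, which were not searched. Rbpj and Dll1 have more than 1 window. The sequences below run 5′ to 3′ over the 250 bases before the start of the gene, with the core in capitals.
Rbpj, chr5:53590096-53590345, plus strand: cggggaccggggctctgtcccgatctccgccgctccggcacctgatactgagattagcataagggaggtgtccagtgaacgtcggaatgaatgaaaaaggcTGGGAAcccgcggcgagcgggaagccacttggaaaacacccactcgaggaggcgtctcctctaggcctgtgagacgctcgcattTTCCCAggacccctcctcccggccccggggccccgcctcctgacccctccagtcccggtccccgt
Jag1, chr2:137116521-137116770, minus strand: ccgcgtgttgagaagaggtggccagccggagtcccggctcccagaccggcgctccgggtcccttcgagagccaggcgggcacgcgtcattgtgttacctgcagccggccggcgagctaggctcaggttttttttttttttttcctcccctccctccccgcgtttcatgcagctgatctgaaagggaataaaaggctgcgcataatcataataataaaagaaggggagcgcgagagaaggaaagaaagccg
The Rbpj window held 2 cores that do not overlap, of which the first begins 149 bases before the start and the second 65 bases before it, on opposite strands. The other Rbpj window, which begins further along, held the second of these. The windows of the other 7 members searched held none. Of 32851 windows of the same length in the genome, 25.6% held at least 1 core and 3.79% at least 2. A match is a description of the letters only, and binding was not measured.

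For each gene the 3 probes were averaged, put on the log2 scale and set against 10 seminal proteins, which stand for no expression and whose mean was subtracted plate by plate. The result is called the level. A gene was counted as expressed when the mean of its 4 levels in a line was above 2 SD of those seminal proteins. That threshold came to 0.37 ± 0.11 (SD, n = 4) for AtT20, 0.56 ± 0.15 for BV2 and 0.74 ± 0.10 for N18. Lines were compared with limma on log2 intensities after quantile normalization of the 12 arrays, and a difference was called at an adjusted p under 0.05 over all 25128 genes and targets. The intensities of the AtT20-labelled plates stood apart. Their array medians were 10.85 to 11.50 on the log2 scale, against 9.90 to 10.54 in the other lines. Their probes were compressed, with an interquartile range of 0.38 to 0.78 per array against 1.28 to 2.21. Correlation between plates of a line was 0.896 to 0.959 there and at least 0.976 in the other lines. For genes above the threshold in at least 1 line, the median SD between plates was 0.25 there after quantile normalization. It was 0.13 in BV2 and 0.10 in N18. The limma fit shared a single estimate of the spread per gene among the lines. The SE and p-values of N18 against BV2 thus include the spread of the AtT20-labelled plates. Of 10 corticotroph markers 2 were above the threshold on these plates, and Pomc (0.29 ± 0.26), Tbx19 and Pcsk1 were not, so the plates are named by their label. Of the same 10 markers, 6 were above the threshold in N18 and 3 in BV2. Of 13 microglia markers, 9 were above the threshold in BV2, 2 in N18 and 0 on the AtT20-labelled plates. Of 15 neuroblastoma markers, 13 were above it in N18, 8 in BV2 and 9 on the AtT20-labelled plates. Among 14 genes of all cells, such as Actb and Gapdh, the median level was 3.1 on the AtT20-labelled plates. It was 5.28 in BV2 and 5.65 in N18, so lower levels on the AtT20-labelled plates were not particular to the pathway genes.

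N18 cells expressed mRNA for 7 of the 10 Notch pathway genes, the AtT20-labelled plates for 6 and BV2 cells for 4. Over all genes and targets the threshold was passed by 55.4% in N18, 35.0% on the AtT20-labelled plates and 53.3% in BV2. Notch2, Jag2 and Rbpj were above the threshold in every line. Dll1 and Hey1 were above it in N18 alone, Notch1 in BV2 alone and Notch4 on the AtT20-labelled plates alone, while Jag1 and Hes1 passed in N18 and on the AtT20-labelled plates. Notch3 passed in 0 lines. Of the 30 probes, 23 were above the threshold in N18, 13 in BV2 and 10 on the AtT20-labelled plates. At least 2 probes were above it for 7 of the 7 genes counted in N18, 3 of the 4 in BV2 and 3 of the 6 on the AtT20-labelled plates. These probe counts are descriptive only. The threshold was set from averaged probes and not from single ones, and the share over all probes of the array was not counted.

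**Figure D1:**
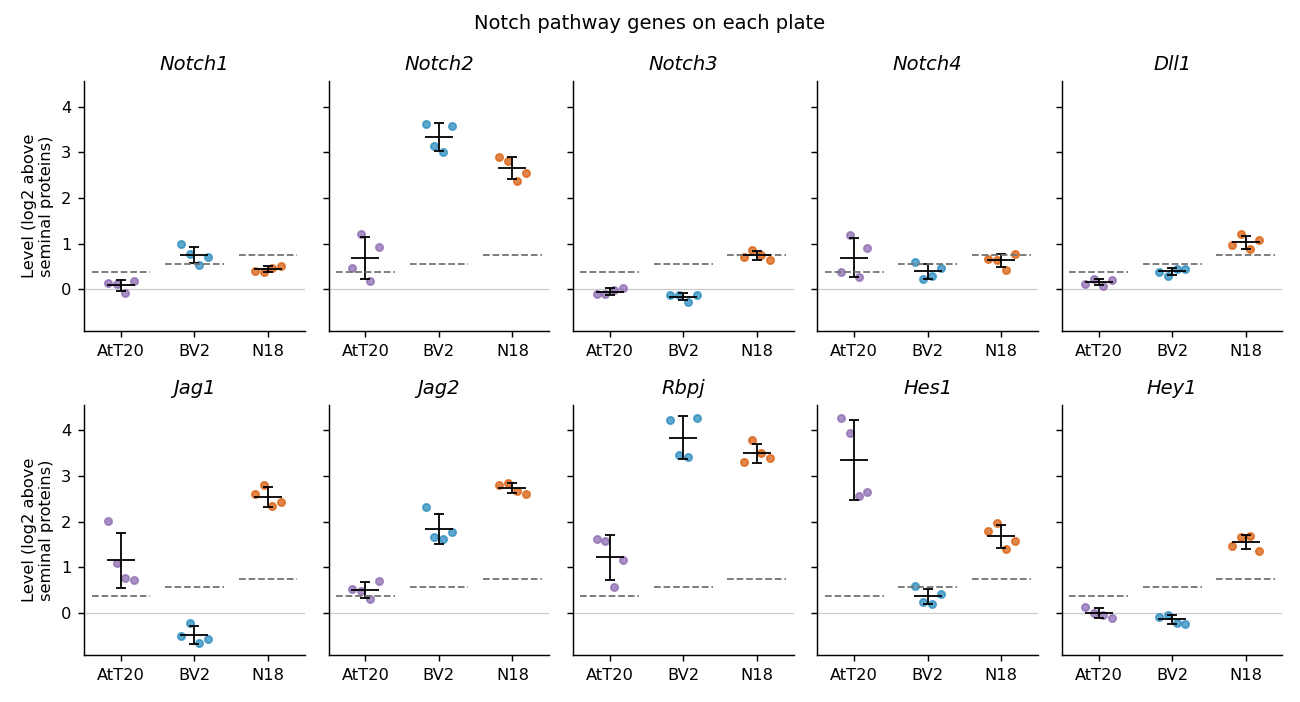
Level of each Notch pathway gene on each plate, in log2 units above the mean of the 10 seminal proteins of that plate, for AtT20, BV2 and N18. Points are plates, black bars are the mean and SD of 4 plates, and dashed lines are the thresholds (0.37, 0.56 and 0.74). In BV2 the means of Jag1 and Hes1 are below the dashed line, with 1 Hes1 plate (0.58) just above it, and Hey1 is above it in N18 alone.

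Notch2, a receptor used in many tissues, was the only receptor expressed in every line. Its level on the BV2 plates was 3.62, 3.13, 3.01 and 3.58 (plates 1 to 4, here and below), with a mean of 3.34 ± 0.31 (SD, n = 4). On the N18 plates it was 2.89, 2.81, 2.37 and 2.55, with a mean of 2.65 ± 0.24. Every BV2 plate was above every N18 plate, and all 3 probes passed in both lines. The AtT20-labelled plates gave 0.47, 1.20, 0.17 and 0.93, with a mean of 0.69 ± 0.46. There only probe 3 was above the threshold, with values from 0.39 to 2.12, so the AtT20 call rested on 1 probe. It was lost under 4 of 8 other threshold rules. After quantile normalization Notch2 was lower in N18 than in BV2 by a log2 difference of -1.30 ± 0.17 (SE), or 2.46-fold (limma, adjusted p = 8.64e-06). BV2 exceeded the AtT20-labelled plates by 1.54 ± 0.17 (adjusted p = 3.97e-07). N18 and the AtT20-labelled plates differed by 0.24, which did not pass (adjusted p = 0.191). Their order on that scale was not settled by its probes, which differed by -0.97 to 1.69, and relative to the seminal proteins N18 was higher by 1.96 (adjusted p = 4.85e-07).

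Notch1, the receptor best known from T cells and neural progenitors, stayed close to the thresholds. Its level was 0.98, 0.77, 0.54 and 0.71 on the BV2 plates, with a mean of 0.75 ± 0.18 (SD, n = 4). The N18 plates gave 0.39, 0.38, 0.47 and 0.50, with a mean of 0.44 ± 0.06. On the AtT20-labelled plates it was 0.13, 0.11, -0.08 and 0.18, with a mean of 0.09 ± 0.12. Each BV2 plate was higher than each plate of the other lines, but of its 3 probes only probe 1 was above the BV2 threshold, at 1.41 ± 0.20, and the BV2 call was lost under 5 of 8 other rules. N18 was lower than BV2 after quantile normalization, at -0.45 ± 0.13 (SE, adjusted p = 0.00917). All 3 probes had this sign, from -0.84 to -0.07. The difference was -0.31 on the scale of the seminal proteins (adjusted p = 0.012) and did not pass without normalization (-0.34, adjusted p = 0.154) or with the median of the probes (-0.17, adjusted p = 0.394). Against the AtT20-labelled plates, neither N18 (-0.28, adjusted p = 0.0538) nor BV2 (0.17, adjusted p = 0.239) passed the test, and both signs turned with the scaling. Without AtT20 plate 3 the N18 difference was -0.41 and passed (adjusted p = 0.00105).

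Notch3, a receptor of vascular smooth muscle and pericytes, was measured at the threshold in N18 and below it elsewhere. The N18 plates gave 0.70, 0.87, 0.74 and 0.65, with a mean of 0.74 ± 0.09 (SD, n = 4) beside a threshold of 0.74 that it did not exceed. Without N18 plate 1, or without N18 plate 4, it passed. Probes 1 and 3 were above the threshold there, at 0.91 ± 0.14 and 1.11 ± 0.07, and probe 2 was at -0.05 ± 0.25. Its level was -0.13, -0.12, -0.28 and -0.13 on the BV2 plates and -0.11, -0.11, -0.02 and 0.03 on the AtT20-labelled plates. The N18 plates did not overlap with either line on this scale. N18 exceeded BV2 by 0.56 ± 0.10 (SE) after quantile normalization (adjusted p = 0.000225), with the same sign in all 3 probes and a difference of 0.53 to 1.10 under 8 other settings. No fold is given because neither line was above its threshold. The difference of N18 from the AtT20-labelled plates was 0.24 (adjusted p = 0.0381) and turned to -0.60 without normalization. It also lost its call without plate 1 or 2 of AtT20 or any 1 of the N18 plates (0.15 to 0.26, adjusted p = 0.0509 to 0.105). BV2 was lower than the AtT20-labelled plates, at -0.32 (adjusted p = 0.00768), which did not pass relative to the seminal proteins (-0.11, adjusted p = 0.214).

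Notch4, known from endothelial cells, had a mean above the threshold on the AtT20-labelled plates alone, though more of its probes passed in N18. Its level there was 0.38, 1.18, 0.27 and 0.91, with a mean of 0.69 ± 0.43 (SD, n = 4). The BV2 plates gave 0.60, 0.22, 0.29 and 0.47, and the N18 plates 0.67, 0.64, 0.42 and 0.78. All 3 lines overlapped on this scale. The AtT20 call rested on probe 1, at 1.26 ± 0.67, and was lost under 3 of 8 other rules. In N18 probes 1 and 3 were above the threshold, at 0.80 ± 0.11 and 0.98 ± 0.24, and in BV2 probe 3 was, at 0.68 ± 0.23. With the seminal proteins taken without the highest, N18 passed as well. After quantile normalization the AtT20-labelled plates exceeded N18, with a difference of -1.26 ± 0.14 (SE) for N18 (adjusted p = 6.67e-07), and BV2, with -1.27 ± 0.14 (adjusted p = 7.17e-07). Relative to the seminal proteins the same differences were -0.06 (adjusted p = 0.749) and -0.29 (adjusted p = 0.107). N18 and BV2 differed by 0.01 ± 0.14 (adjusted p = 0.981). Of the 12 fibroblast and endothelial markers, 6 were above the threshold on the AtT20-labelled plates, 6 in BV2 and 8 in N18, with summed levels of 3.33 to 9.02, 5.28 to 7.44 and 13.8 to 15.4 per plate. The endothelial genes Pecam1 and Cdh5 were at 0.11 and -0.13 on the AtT20-labelled plates. Both were above the threshold in BV2 (1.7 and 0.72) and in N18 (2.23 and 1.11). Kdr was above the threshold in each line, at 1.05, 1.10 and 1.31 in the order AtT20, BV2 and N18, and Tek was below it in each. Their part in the Notch4 values was not tested.

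Of the 3 ligands among the 10 genes, Jag1 had the largest difference between N18 and BV2. This gene encodes a Jagged ligand with known roles in bile duct and vessel formation. Its level on the N18 plates was 2.61, 2.81, 2.34 and 2.42, with a mean of 2.54 ± 0.21 (SD, n = 4). The BV2 plates gave -0.51, -0.21, -0.65 and -0.56, with a mean of -0.48 ± 0.19, below the seminal proteins on every plate. The AtT20-labelled plates gave 2.02, 1.09, 0.77 and 0.72, with a mean of 1.15 ± 0.60, where plate 1 was well above the other 3. On this scale no 2 lines overlapped. All 3 probes passed in N18, 0 in BV2, and probes 1 and 3 on the AtT20-labelled plates, where probe 2 was at -0.11 ± 0.09. N18 exceeded BV2 by 2.13 ± 0.18 (SE) on the log2 scale after quantile normalization (limma, adjusted p = 7.03e-08), and was at least 2.3-fold higher when BV2 was set to its threshold. The difference lay between 2.01 and 3.71 under 9 other settings. The AtT20-labelled plates exceeded BV2 as well, with -2.55 ± 0.18 for BV2 (adjusted p = 2.68e-09), at least 1.4-fold.

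The order of N18 and the AtT20-labelled plates for Jag1 depended on the scale. N18 minus AtT20 was -0.42 ± 0.18 (SE) after quantile normalization (adjusted p = 0.0449), 0.01 without normalization (adjusted p = 0.978) and 1.40 on the scale of the seminal proteins (adjusted p = 5.95e-06). Its probes ran from -1.28 to 1.20. The call after quantile normalization was lost without plate 1 (-0.23) or 3 (-0.34) of AtT20 or any 1 of the N18 plates (-0.44 to -0.41), with adjusted p values from 0.0647 to 0.159. Those 2 lines are therefore not ordered here.

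Jag2, the other Jagged ligand, was expressed in every line, but its AtT20 call was lost with the olfactory receptor controls and with a threshold of 3 SD. The N18 plates gave 2.80, 2.84, 2.66 and 2.60, with a mean of 2.73 ± 0.11 (SD, n = 4), and the BV2 plates 2.31, 1.67, 1.62 and 1.77, with a mean of 1.84 ± 0.32. On the AtT20-labelled plates its level was 0.53, 0.48, 0.30 and 0.71, with a mean of 0.50 ± 0.17. No plates of different lines overlapped on this scale, and all 3 probes passed in N18 and in BV2. The N18 excess over BV2 was 0.24 ± 0.13 (SE) after quantile normalization, which did not pass (adjusted p = 0.16). Without normalization it was 0.85 (adjusted p = 0.00055), and relative to the seminal proteins 0.88 (adjusted p = 0.000564), both of which passed. N18 exceeded the AtT20-labelled plates by 0.41 ± 0.13 (adjusted p = 0.00823), with 2 of the 3 probes of that sign (-0.50 to 0.92). The call was the same under 8 other settings. BV2 exceeded the AtT20-labelled plates by 0.18, which did not pass (adjusted p = 0.224), and by 1.34 relative to the seminal proteins (adjusted p = 3.14e-06).

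Dll1, a Delta ligand of neural progenitors and of the somites, was above the threshold in N18 alone. Its level was 0.97, 1.21, 0.88 and 1.07 on the N18 plates, with a mean of 1.03 ± 0.14 (SD, n = 4). The BV2 plates gave 0.38, 0.30, 0.44 and 0.44, and the AtT20-labelled plates 0.12, 0.22, 0.07 and 0.20. The 3 lines did not overlap, but the N18 call was lost with the olfactory receptor controls and with a threshold of 3 SD. Probes 1 and 2 passed in N18, at 1.38 ± 0.13 and 1.28 ± 0.20, and probe 3 was at 0.14 ± 0.15. N18 exceeded BV2 by 0.26 ± 0.09 (SE) after quantile normalization (adjusted p = 0.0223), with 2 of the 3 probes of that sign. The call was lost without BV2 plate 1 (0.23, adjusted p = 0.0801) or plate 4 (0.26, adjusted p = 0.0503), and without N18 plate 2 (0.24, adjusted p = 0.0689) or plate 4 (0.25, adjusted p = 0.0636). BV2 was lower than the AtT20-labelled plates, at -0.35 ± 0.09 (adjusted p = 0.00163), and 0.23 higher relative to the seminal proteins (adjusted p = 0.0367). The difference of N18 from those plates was -0.09 (adjusted p = 0.36), and 0.88 relative to the seminal proteins (adjusted p = 4.95e-08).

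**Figure D2:**
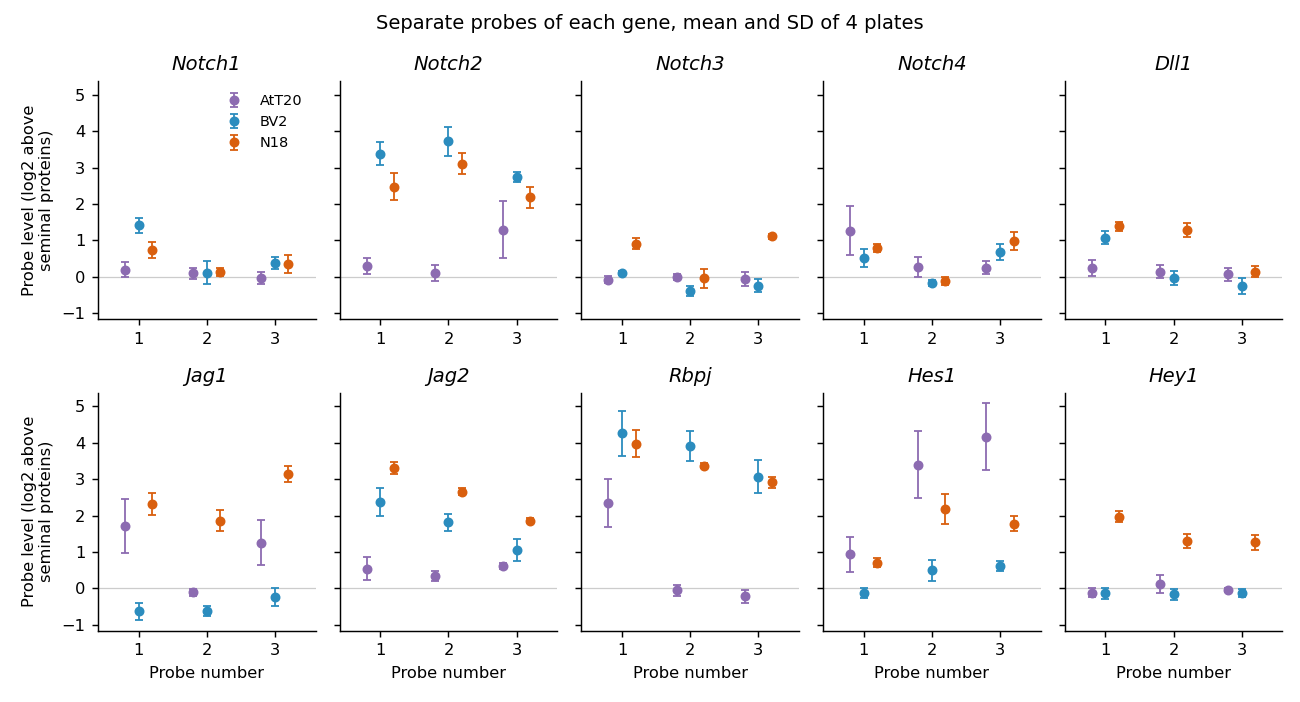
Level of the separate probes of each gene, in log2 units above the seminal proteins, numbered by position along the transcript. Points and bars are the mean and SD of 4 plates for AtT20, BV2 and N18. Notch2, Rbpj and Jag1 have probes that stand apart from each other on the AtT20-labelled plates, and the 3 probes of Hey1 are above the other lines in N18.

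Rbpj, through which the receptors act on DNA, was expressed in every line. However, its AtT20 call was lost with the median of the probes and with at least 2 probes required. Its level was 4.23, 3.45, 3.41 and 4.27 on the BV2 plates, with a mean of 3.84 ± 0.47 (SD, n = 4). On the N18 plates it was 3.31, 3.78, 3.50 and 3.39, with a mean of 3.50 ± 0.21. These 2 lines overlapped on this scale, and all 3 probes passed in both. The AtT20-labelled plates gave 1.62, 1.57, 0.56 and 1.15, with a mean of 1.22 ± 0.49, below every plate of the other lines. Only probe 1 passed there, at 2.35 ± 0.66, while probes 2 and 3 were at -0.05 ± 0.15 and -0.22 ± 0.17. After quantile normalization N18 was lower than BV2, at -1.06 ± 0.12 (SE), or 2.09-fold (adjusted p = 1.36e-06). The plates did not overlap on that scale and all 3 probes shared the sign. The difference did not pass relative to the seminal proteins (-0.35, adjusted p = 0.325) or without normalization (-0.38, adjusted p = 0.205). BV2 exceeded the AtT20-labelled plates by 1.58 ± 0.12 (adjusted p = 3.77e-09), with the same call under each scaling and the same sign in all 3 probes. N18 exceeded them by 0.52 ± 0.12 (adjusted p = 0.000737), with 2 of the 3 probes of that sign.

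Hes1, a target gene whose protein also represses its own gene, was highest on the AtT20-labelled plates. Its level there was 4.26, 3.95, 2.55 and 2.65, with a mean of 3.35 ± 0.88 (SD, n = 4), and plates 1 and 2 were the higher pair. The N18 plates gave 1.79, 1.97, 1.41 and 1.57, with a mean of 1.68 ± 0.25. The BV2 plates gave 0.58, 0.25, 0.19 and 0.42, with a mean of 0.36 ± 0.17, below the threshold. The lines did not overlap in this order. All 3 probes passed on the AtT20-labelled plates, 2 in N18 and 1 in BV2. The highest Hes1 probe reached 15.83 on the log2 intensity scale, under the upper limit of 16.00. BV2 minus AtT20 was -3.88 ± 0.15 (SE) after quantile normalization (limma, adjusted p = 1.6e-12), and the AtT20-labelled plates were at least 6.8-fold higher when BV2 was set to its threshold. N18 was lower than the same plates by -3.15 ± 0.15, or 8.87-fold (adjusted p = 1.63e-11), and by -1.67 relative to the seminal proteins (adjusted p = 4.44e-05). N18 exceeded BV2 by 0.73 ± 0.15 (adjusted p = 0.000742), at least 1.4-fold, and by 0.70 to 1.32 under 9 other settings. All 3 probes had these signs in each of the 3 comparisons.

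Hey1, a Hes-related target with known roles in heart and vessel development, was expressed in N18 alone. Its level was 1.47, 1.66, 1.69 and 1.36 on the N18 plates, with a mean of 1.55 ± 0.16 (SD, n = 4). The AtT20-labelled plates gave 0.13, 0.00, -0.05 and -0.10, and the BV2 plates -0.08, -0.04, -0.22 and -0.24. Every N18 plate was above every other plate, all 3 probes passed in N18, at 1.97 ± 0.16, 1.29 ± 0.19 and 1.26 ± 0.21, and 0 passed elsewhere. The N18 call was the same under 8 other rules. N18 exceeded BV2 by 1.09 ± 0.12 (SE) after quantile normalization (adjusted p = 1.89e-06), at least 1.3-fold, and by 0.97 to 1.90 under 9 other settings. N18 exceeded the AtT20-labelled plates by 0.65 ± 0.12 (adjusted p = 0.000167), which did not pass without normalization (0.16, adjusted p = 0.432). BV2 was lower than those plates, at -0.45 ± 0.12 (adjusted p = 0.0038). Their mean levels were -0.14 ± 0.10 and 0.00 ± 0.10, and on that scale the plates overlapped and the difference did not pass (-0.14, adjusted p = 0.221).

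Between N18 and BV2, 8 of the 10 genes differed after quantile normalization, beside 40.9% of all genes and targets tested. Notch3, Dll1, Jag1, Hes1 and Hey1 were higher in N18 (19.0% of all were), and Notch1, Notch2 and Rbpj were lower (21.9%), while Notch4 and Jag2 did not pass. The plates of the lines did not overlap for 8 of the 10, beside 55.4% of all. The median difference of the 10 genes was 0.25, beside -0.06 over all genes. With N18 against the AtT20-labelled plates, 7 differed, beside 76.4% of all. Notch3, Jag2, Hey1 and Rbpj were higher in N18 (27.8% of all were) and Notch4, Jag1 and Hes1 lower (48.6%), and the plates did not overlap for 5 of the 10 (68.2%). In BV2 against the AtT20-labelled plates, 8 differed, beside 73.6% of all. Notch2 and Rbpj were higher in BV2 (26.6%) and Notch3, Notch4, Dll1, Jag1, Hes1 and Hey1 lower (47.0%), and the plates did not overlap for 8 of the 10 (62.6%). The last 2 comparisons share the AtT20-labelled plates.

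The scaling moved all genes together. The median difference of all genes for N18 against BV2, N18 against AtT20 and BV2 against AtT20 was -0.06, -0.25 and -0.23 after quantile normalization, 0.15, -0.85 and -1.08 without normalization, and 0.18, 0.54 and 0.28 relative to the seminal proteins. Of the genes called, the share higher in the line named first was 46.5%, 36.4% and 36.2% after quantile normalization, 80.2%, 24.0% and 13.5% without, and 74.7%, 78.8% and 74.2% relative to the seminal proteins. In the same order of comparisons, the members called higher and lower in the line named first were 6 and 2, 8 and 1, and 5 and 2 relative to the seminal proteins, against 5 and 3, 4 and 3, and 2 and 6 after quantile normalization. Without normalization they were 6 and 1, 3 and 5, and 2 and 7. Read against the median of all genes, the seminal and unnormalized scales must give the same values, since they differ only by a constant for each plate. They are therefore not separate checks here. In N18 against BV2 the members took the same side of that median on these scales and after quantile normalization. Notch3, Notch4, Dll1, Jag1, Jag2, Hes1 and Hey1 were above it and Notch1, Notch2 and Rbpj below it. In BV2 against the AtT20-labelled plates, Notch1, Notch2, Jag2 and Rbpj were above the median both ways and the other 6 below it. For N18 against the AtT20-labelled plates, Jag1 changed side (-0.17 from the median after quantile normalization and 0.86 relative to the seminal proteins), and the other 9 did not.

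**Figure D3:**
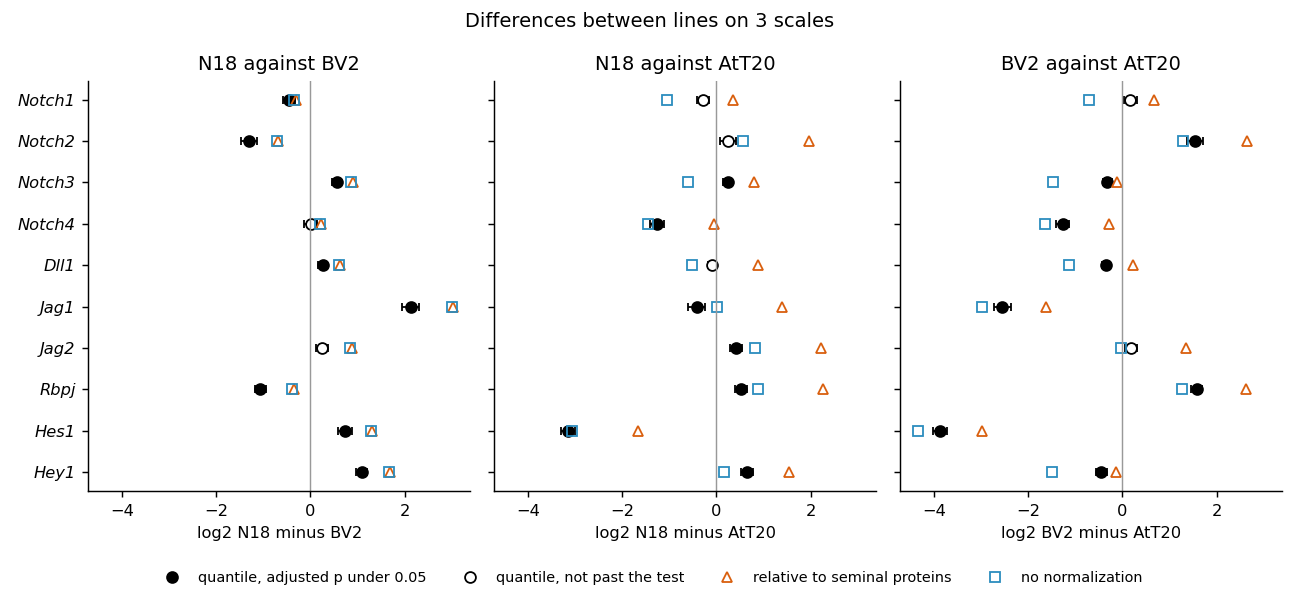
Difference between lines for each Notch pathway gene on the log2 scale, for N18 against BV2, N18 against AtT20 and BV2 against AtT20. Circles are quantile-normalized values with SE bars (filled where the adjusted p was under 0.05), triangles are levels relative to the seminal proteins and squares are values without normalization, both without error bars. The 3 marks of a gene lie closer together in N18 against BV2 than in the comparisons with AtT20, where Jag1 runs from -0.42 to 1.40.

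Other genes of the pathway were listed by role, and 64 of 72 had probes. The genes without probes were not analysed here. Above the threshold were 49 of the 64 in N18, 43 in BV2 and 28 on the AtT20-labelled plates, beside 55.4%, 53.3% and 35.0% of all genes and targets. Between N18 and BV2, 28 differed, 15 of them higher in N18 and 13 lower, with a median difference of 0.01, beside the 40.9% of all genes that differed. That near-even split was seen on the quantile-normalized scale, since 28 were higher and 4 lower relative to the seminal proteins, and 24 and 4 without normalization. Against the AtT20-labelled plates, 50 of the 64 differed in N18 (24 higher and 26 lower) and 50 in BV2 (19 higher and 31 lower), beside 76.4% and 73.6% of all. The balance turned with the scaling. Relative to the seminal proteins, 47 were higher and 4 lower in N18, and 31 higher and 7 lower in BV2. Without normalization, 17 were higher and 29 lower in N18, and 12 higher and 45 lower in BV2.

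Of the 7 other ligands, the microfibril protein Mfap2 and the non-canonical ligand Dlk1 were higher in N18 than in BV2 and 0 were lower. Over all genes and targets, 19.0% were higher and 21.9% lower. The mean level of Mfap2 was 5.02 ± 0.17 (SD, n = 4) in N18, 0.89 ± 0.21 in BV2 and 1.63 ± 0.64 on the AtT20-labelled plates. Its difference between N18 and BV2 was 3.51 ± 0.13 (SE) after quantile normalization (adjusted p = 1.96e-12), with no overlap of plates. Dlk1 differed by 1.43 ± 0.12 (adjusted p = 5.25e-08), with levels of 2.77 ± 0.13 in N18 and 0.57 ± 0.18 in BV2. In BV2 against the AtT20-labelled plates, 5 of the 7 were lower and 0 higher, beside 47.0% and 26.6% of all genes. Mfap2 was lower by the most (-1.87, adjusted p = 1.95e-09) and Dlk1 was among the 5 (-0.64, adjusted p = 0.000147). Relative to the seminal proteins, 2 of the 7 were lower, Mfap2 being 1 of them (-0.75, adjusted p = 0.0225), and 2 higher. The mean level of Dlk1 was 0.57 in BV2 and 0.37 ± 0.23 on the AtT20-labelled plates. That is the opposite order, and both means were close to their thresholds.

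Among 13 genes that glycosylate or cut the receptors, 2 were higher in N18 than in BV2 (Rfng and Aph1b) and 8 lower (Poglut1, Mfng, Furin, Adam10, Adam17, Psen2, Ncstn and Psenen), with a median difference of -0.53. Over all genes and targets, 19.0% were higher and 21.9% lower, with a median difference of -0.06. The split of the 13 genes rested on the scaling, since 3 were higher and 2 lower relative to the seminal proteins and 2 and 2 without normalization. Psen2, a catalytic subunit of gamma-secretase, kept its call on each scale, at -1.37 ± 0.12 (SE) after quantile normalization (adjusted p = 8.16e-08), with levels of 2.18 ± 0.30 (SD, n = 4) in BV2 and 1.07 ± 0.12 in N18. Adam17, a protease that sheds many membrane proteins, also did, at -1.01 ± 0.13 (adjusted p = 6.1e-06). On the AtT20-labelled plates neither was above the threshold. Compared with those plates, BV2 was at least 1.5-fold higher in Adam17 (adjusted p = 2.2e-10), at least 2.0-fold in the glucosyltransferase Poglut1 (adjusted p = 1.45e-09) and at least 2.9-fold in the gamma-secretase subunit Psenen (adjusted p = 9.46e-10), which like Poglut1 was below the AtT20 threshold. Adam10, the protease of the first cut, was lower in N18 than on the AtT20-labelled plates, at -1.86 (adjusted p = 1.19e-10), but the difference relative to the seminal proteins was -0.20 and did not pass (adjusted p = 0.566).

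Of 15 genes for endocytosis and turnover of receptors and ligands, all 15 were above the threshold in N18, 10 in BV2 and 4 on the AtT20-labelled plates, beside 55.4%, 53.3% and 35.0% of all genes and targets. Nedd4, a ubiquitin ligase, had a level of 5.49 ± 0.08 (SD, n = 4) in N18, 1.70 ± 0.34 in BV2 and -0.13 ± 0.09 on the AtT20-labelled plates. It was 3.30 ± 0.11 (SE) higher in N18 than in BV2 (adjusted p = 5.07e-13), with no overlap of plates. Against the AtT20-labelled plates, N18 was 4.82 higher (adjusted p = 1.27e-14), at least 11.9-fold. Neurl3, of the Neuralized family, was lower in N18 than in BV2, at -1.64 ± 0.14 (adjusted p = 5.37e-08), with levels of 2.27 ± 0.18 and 3.34 ± 0.36. It was below the threshold on the AtT20-labelled plates, and BV2 exceeded them by 3.04 (adjusted p = 1.2e-11), at least 3.0-fold. In N18 against BV2, 6 of the 15 were higher and 3 lower, beside 19.0% and 21.9% of all genes. Relative to the seminal proteins these counts were 9 and 2.

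Of the 7 coactivators, all 7 were above the threshold in N18 and in BV2, beside 55.4% and 53.3% of all genes and targets. Between these lines 1 differed, the acetyltransferase Kat2a, higher in N18, beside 40.9% of all that differed. Relative to the seminal proteins 3 coactivators were higher in N18, and without normalization 4. Of 15 corepressors, 4 were higher in N18 than in BV2 and 0 lower, beside 19.0% and 21.9% of all genes. On the seminal and unnormalized scales 8 and 7 corepressors were higher and 0 lower. Hdac2, a histone deacetylase, led them with a difference of 2.06 ± 0.13 (SE, adjusted p = 1.33e-09) and levels of 5.89 ± 0.15 (SD, n = 4) in N18, 3.44 ± 0.55 in BV2 and 1.53 ± 0.54 on the AtT20-labelled plates. N18 exceeded those plates in Hdac2 (2.57, adjusted p = 3.27e-11) and in the related Hdac1 (2.21, adjusted p = 9e-12). Ncor1, a nuclear receptor corepressor, was lower than on the AtT20-labelled plates in N18 (-1.75, adjusted p = 5.35e-09) and in BV2 (-1.67, adjusted p = 1.07e-08). Relative to the seminal proteins the N18 difference of Ncor1 was -0.28 and did not pass (adjusted p = 0.36).

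Of the 7 other Hes and Hey genes, 0 were higher and 2 (Hes5 and Hes6) lower in N18 than in BV2, beside 19.0% and 21.9% of all genes. Relative to the seminal proteins 2 of the 7 were higher and 0 lower. Hes5, another target of the pathway in neural progenitors, had a level of 2.15 ± 0.20 (SD, n = 4) in BV2 and 1.72 ± 0.33 in N18, with 1 probe above the threshold in each line. The difference was -0.93 ± 0.20 (SE, adjusted p = 0.0015) after quantile normalization, and -0.43 relative to the seminal proteins, which did not pass (adjusted p = 0.184). Hes3 and Hes7 were above the threshold on the AtT20-labelled plates alone, each through 1 probe. With the other line set to its threshold, Hes3 was at least 2.2-fold higher there than in N18 (adjusted p = 8.57e-11) and at least 2.5-fold higher than in BV2 (adjusted p = 7.45e-11). For Hes7, known from the segmentation clock, these bounds were 1.1-fold (adjusted p = 5.62e-11) and 1.2-fold (adjusted p = 3.64e-11).

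**Figure D4:**
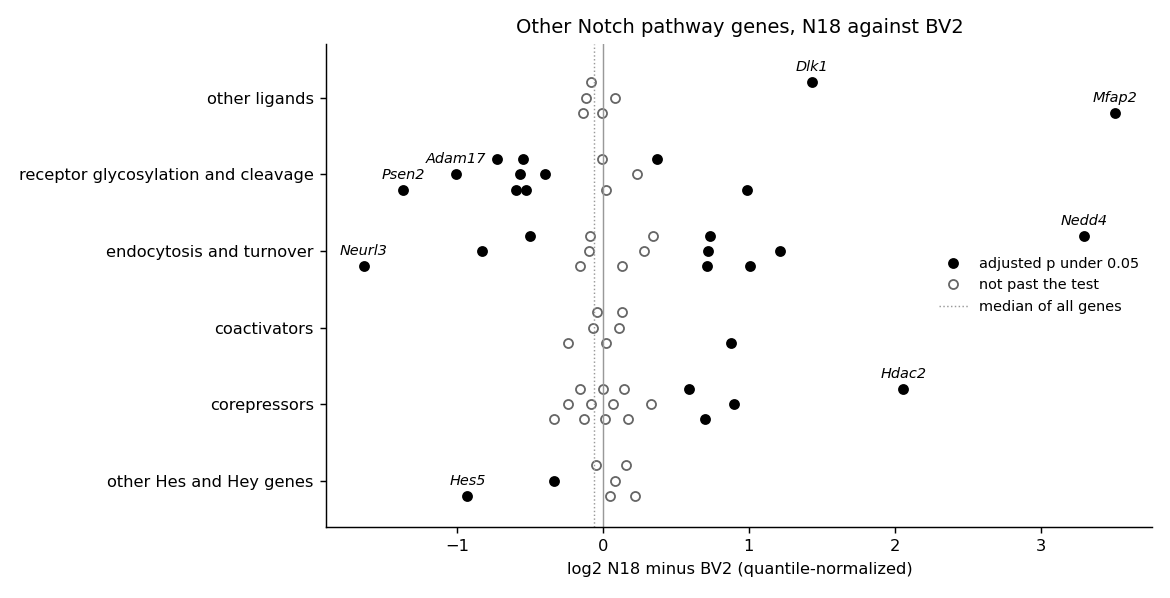
Differences of the 64 other Notch pathway genes between N18 and BV2 on the quantile-normalized log2 scale, grouped by role. Each point is a gene, filled where the adjusted p was under 0.05, and the dotted line is the median of all genes (-0.06). Mfap2 and Nedd4 are farthest to the right (3.51 and 3.30). Of the 13 genes that glycosylate or cut the receptors, 8 are filled points to the left of 0, beside 21.9% of all genes called lower.

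The genes whose pattern over the 12 arrays was most like that of each expressed member were found among 12172 genes with a symbol and a level above the threshold in at least 1 line. The measure was Pearson's r on quantile-normalized values, given as a description, since the arrays fall into 3 lines of 4 plates and a difference between lines raises r for any gene that shares it. For Hes1 these were Grhpr (r = 0.998) and Dyrk1b (0.996), for Jag1 Plekhg1 (0.995) and Cxxc5 (0.990), and for Rbpj Creg1 (0.993) and Ostf1 (0.991). Hey1 was most like Hspa2 (0.986) and Dclk2 (0.982), Notch2 like Kcnab2 (0.985) and Ddx28 (0.984), and Notch4 like Slc6a14 (0.987) and Ttyh1 (0.987). Dll1 came closest to Kif20a (0.965) and Mamdc2 (0.962), Notch1 to Ehd1 (0.938) and Rusc2 (0.930), and Jag2 to Anapc16 (0.903) and Lhpp (0.889). Notch3, which passed in 0 lines, was not compared, and none of the other 9 was among the 2 most like another of them.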

How the data were processed

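RNA of 4 plates per line was hybridised to single-color NimbleGen arrays of the MM8 mouse design, with 60-base probes made 4 arrays to a slide. The deposited values are log2 Cy3 intensities, which the authors made from the scanned images, with 1 value for each of 72000 probes. No background subtraction or normalization between arrays is stated. Which plates shared a slide is not known here, so slide and line cannot be told apart. HEK293 cells and the qPCR values were not used here.

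Samples were grouped by their titles. Probes were grouped into 25631 targets by transcript accession, and 69.4% of the targets were named through RefSeq (GRCm38.p6, names only). Probes were averaged on the linear scale. The threshold follows the study's methods. Differences between lines came from limma (version 3.58.1, run under R 4.3.3, lmFit and then eBayes with a trend, 2-sided, Benjamini-Hochberg over 25128 genes and targets) on all 12 arrays after quantile normalization. Where a line was below its threshold, "at least" gives the smallest fold over the quantile, seminal and unnormalized scales with that line set to its threshold. Other settings changed the probe average, the normalization, the controls, the threshold, the arrays fitted and the plates included. The fit was tested on simulated data. The members, lists, tests and settings were chosen with earlier results of these data known. The fit of the 8 BV2 and N18 arrays alone was added after seeing the data. Named beyond the 10 members are, per pair of lines, the 4 other pathway genes with the largest called difference in each direction among those above the threshold in at least 1 line, the called proneural genes, and the 2 genes most like each expressed member by Pearson's r. Genes named in counts, and the markers beside a result, fall outside this rule. A few genes of these lists are counted but not reported by name. The 4 arrays per line and the signal over background limit the precision. Python 3.11.15 served for tables (pandas 2.3.3 over numpy 2.4.6) and for figures (matplotlib 3.10.9).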

Additional observations from a re-analysis of the deposited data

Results flagged for a closer look

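The Notch3 level on BV2 plate 3 was -0.28, against -0.13, -0.12 and -0.13 on the other 3 BV2 plates. Its gap to the nearest plate, divided by the range of the 4 plates, exceeded Dixon's critical value for 4 plates. All 30 combinations of a Notch pathway gene and a line were examined in this way, and chance alone flags about 1 in 20. Notch3 was below the BV2 threshold of 0.56 on each plate, so the call did not rest on that plate.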

How the results depend on the processing

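Of 247 differences between lines recomputed under other settings, 214 kept their direction and their side of an adjusted p of 0.05. Of 240 with 1 plate left out, 219 did. Some settings reuse the same quantile-normalized values, so under them only the adjusted p could change and not the direction. These are the replicate block, the fit of only the 8 arrays of a pair, and the fit of only genes above the threshold in at least 1 line. The number of Notch pathway genes above the threshold on the AtT20-labelled plates fell from 6 to 3 with olfactory receptor genes as controls and to 3 with at least 2 probes required. With the olfactory receptor controls the number over all genes fell from 8788 to 5580 on those plates and from 13386 to 7864 in BV2. The sign turned for Notch1 (0.35), Dll1 (0.88) and Jag1 (1.40) in N18 against AtT20 and for Dll1 (0.23) in BV2 against AtT20 relative to the seminal proteins. It turned without normalization for Notch3 (-0.60) and Jag1 (0.01) in N18 against AtT20 and for Notch1 (-0.70) and Jag2 (-0.02) in BV2 against AtT20. With the median of the probes it turned for Dll1 (0.16) in N18 against AtT20 and Notch1 (-0.05) in BV2 against AtT20. The cause was not tested. The Notch4 difference of N18 from BV2 lay between -0.03 and 0.04 with 1 plate left out. Over all genes, 10270 differed between N18 and BV2 with all 12 arrays fitted and 15509 with only the 8 arrays of the pair, whereas 8 of the 10 Notch pathway genes did in each fit. In N18 against AtT20 the fit of the 8 arrays called 3 members higher and 2 lower, against 4 and 3 with all 12. Over all genes 18409 differed in that fit, against 19192. In BV2 against AtT20 the members called were 2 higher and 6 lower in each fit.

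Replicate numbers belong to plates of different lines and were not treated as pairs in the main fit. The correlation of same-numbered deviations ran from -0.12 to 0.35, the highest being that of plate 2 of N18 and BV2. With the replicate number as a block, 8, 7 and 8 of the 10 genes differed in N18 against BV2, N18 against AtT20 and BV2 against AtT20, as without it, and 10108 of all genes differed between N18 and BV2. Differences near the thresholds, such as those of Notch1, Notch3 and Notch4, are limited by the signal over background.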

Other observations

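Proneural genes of the basic helix-loop-helix family, which Hes repressors are known to hold down, were measured beside the pathway. Hes6 was listed with them, although it is a Hes gene and is also counted above among the other Hes and Hey genes. Of the 9 listed genes with probes, Hes6 included, 1 was above the threshold in N18 (Hes6) and 2 in BV2 (Atoh7 and Hes6). On the AtT20-labelled plates 2 were (Neurog2 and Atoh7). Over all genes and targets the threshold was passed by 55.4% in N18, 53.3% in BV2 and 35.0% on those plates. Hes6 gave 0.80, 1.01, 0.71 and 0.76 on the N18 plates and 1.08, 0.90, 0.79 and 0.85 on the BV2 plates, and was the only one called between N18 and BV2, at -0.34 ± 0.13 (SE) after quantile normalization (limma, adjusted p = 0.039). The 2 lines overlapped in its level. Against the AtT20-labelled plates, 7 of the 9 were lower and 0 higher in N18, and 7 were lower and 1 higher in BV2, beside 48.6% and 47.0% of all genes lower. Relative to the seminal proteins 3 were higher and 3 lower in N18, and 2 higher and 4 lower in BV2. The median difference of the 9 genes between N18 and BV2 was -0.08, beside -0.06 over all genes. With only the 8 arrays of these 2 lines fitted, 2 of the 9 were called higher and 4 lower in N18. In that fit 15509 of all 25128 genes and targets were called. With those arrays also normalized alone, 1 was higher and 4 lower.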
